A study of Mus musculus with 13 samples.

Results

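A set of 6 genes of the extracellular matrix and its receptors was followed through single neurons of mouse dorsal root ganglia (DRG), from the embryo to the adult, that had been labelled as proprioceptors by their genetic reporter. They are *Itga2* and *Itgb1*, which encode the alpha 2 and beta 1 subunits of a collagen-binding integrin, *Chad* (chondroadherin), *Dcn* (decorin), *Hapln1* (a hyaluronan link protein) and *Crtac1* (cartilage acidic protein 1). The 6 genes are those of 50508 listed genes that form this matrix and collagen-receptor set, and they were chosen by their mean UMI levels in the clusters of adult neurons. Those cluster levels are therefore given as a description, with no test. Levels at the other stages, and in the wells that the authors left out of their clustering, were not part of that choice, but comparisons of these with the kept adult neurons share that arm with it.

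Single tdTomato+ neurons were sorted into 96-well plates and sequenced by Plate-seq, which gives counts of Unique Molecular Identifiers (UMIs) per gene and well. The adult (5 plates, 6 animals), postnatal day (p) 12 (4 plates, 4 animals) and p0 (2 plates, 6 animals) neurons came from *PV:Cre*+/-, *Rx3:Flp*+/-, *Ai65*+/- mice, in which both recombinases must have acted in a cell, or in its precursors, for tdTomato to appear. The e14.5 (embryonic) neurons (2 plates, 2 animals) carried *TrkC:tdTomato* instead, a broader label, so at this step the stage and the genetic label cannot be told apart. Mice of either sex were used, and all cells were dissociated with enzymes and sorted for Calcein Blue and against Sytox red. Plates are the replicates, and the sources used here do not say which animals a plate holds, so the spread between plates may be technical in part.

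Of 1248 wells, the authors' annotation kept 586 (169 neurons of e14.5, 55 of p0, 154 of p12 and 208 adult). Another 551 wells had UMIs of at least 2000 genes but were left out, 242 of them adult, 216 p12, 92 p0 and 1 e14.5, and 111 wells had fewer genes. The kept neurons of 1 plate held between 680212 and 2387288 UMIs. The median depth was 10604 UMIs per kept neuron for e14.5, 41058 for p0, 24462.5 for p12 and 36926.5 for the adult, so a gene of low level was seen less easily at e14.5. The proprioceptor markers *Pvalb*, *Runx3*, *Ntrk3*, *Etv1* and *Whrn* together took between 2761 and 3315 CPM (UMIs of a gene per 1000000 UMIs of the well) in the adult plates, between 4076 and 4371 at p12, between 4986 and 5060 at p0 and between 1668 and 1708 at e14.5, where *Whrn* had 2 UMIs, both in cluster 2. Within e14.5 the sum was between 688 and 738 CPM in cluster 3 and 695 in cluster 4 (34 and 6 neurons), against between 1995 and 2113 in cluster 2. So 40 of the 169 kept e14.5 neurons carry these markers at a lower level, and they are included in the e14.5 values and fits unless stated. The adult plates are not alike, since clusters 2 and 4 lie on replicates 1 and 2 alone. At p12, clusters 2 and 3 lie on replicates 1 and 2 (12 and 13 kept neurons), and clusters 1, 4 and 5 on replicates 3 and 4 (67 and 62).

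Integrins are receptors made of an alpha and a beta chain that tie a cell to its matrix. The pair of alpha 2 and beta 1 binds collagen, the main fibre of tendon and of the capsules in which many mechanoreceptors end. Chondroadherin and decorin are secreted proteins with leucine-rich repeats that bind collagen, and the former is also a known partner of integrins with the alpha 2 chain. Link proteins such as Hapln1 hold hyaluronan and proteoglycans together in the nets around neurons and in cartilage. Crtac1 is a secreted or membrane-bound glycoprotein first described in cartilage and also made by neurons.

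The genes lie on different chromosomes, apart from *Itga2* (chr13:114833081-114932100, minus strand) and *Hapln1* (chr13:89540529-89611832, plus strand). *Itgb1* is at chr8:128685654-128733579, *Chad* at chr11:94565047-94569127, *Dcn* at chr10:97479500-97518163 (all plus) and *Crtac1* at chr19:42283035-42432966 (minus; GRCm38). *Chad* lies within the span of *Acsf2* (27 UMIs in all wells used) and *Hapln1* overlaps the pseudogene *Gm8546* (23 UMIs), and whether the counting used the strand is not given in the sources used here. The proximal promoters of *Itga2* and *Chad* are shown because their joint detection in single wells is described. The RefSeq table held a window for every member but *Dcn*. Each window shown is the 250 bases before the RefSeq gene start (GRCm38.p6), 5′ to 3′ on the gene's strand, and capitals mark a TATAAA motif.

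Itga2 (chr13:114932101-114932350, minus): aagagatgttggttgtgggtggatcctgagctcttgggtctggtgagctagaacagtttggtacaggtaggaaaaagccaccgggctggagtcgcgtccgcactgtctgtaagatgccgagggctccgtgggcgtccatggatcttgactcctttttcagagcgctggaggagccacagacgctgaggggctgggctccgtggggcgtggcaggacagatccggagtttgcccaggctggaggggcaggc
Chad (chr11:94564797-94565046, plus): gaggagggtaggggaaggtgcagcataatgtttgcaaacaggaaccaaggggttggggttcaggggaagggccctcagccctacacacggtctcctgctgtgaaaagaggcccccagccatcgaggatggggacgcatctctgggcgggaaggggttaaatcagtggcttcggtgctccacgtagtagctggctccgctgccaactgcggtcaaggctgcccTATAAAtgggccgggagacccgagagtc

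The *Chad* window holds TATAAA 28 bases before the start, a motif found in 12.4% of 32851 mouse promoter windows of this length. Neither window holds TAATTA (a homeodomain core, in 4.84% of the windows), TGTGGT (a RUNX core, 14.05%) or CCGGAA (an ETS core, 12.0%) on either strand. The *Itga2* window holds none of the 4 motifs. These matches describe the letters of the windows only.

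In the adult, *Itga2* was detected in cluster 5 alone among the groups of kept neurons. Its mean level in cluster 5 was 7.63, 3.26, 7.001, 9.90 and 8.39 CPM on replicates 1 to 5 (7.24 ± 2.47, SD, n = 5 plates), and 11 of 31 neurons had a UMI (35.5%, exact 95% interval 19.2% to 54.6%). No UMI was found in the 51, 15, 41 and 28 neurons of clusters 1 to 4, nor in the 42 neurons without a numbered cluster. These zeros allow shares of neurons with a UMI of up to 5.88%, 20%, 7.32%, 10.7% and 7.14%, which do not limit the share that expresses the gene. Against a floor of 3 UMIs over the group, *Itga2* was at least 8.21-fold higher in cluster 5 than in cluster 1 and at least 4.24-fold higher than in cluster 3. The bound was weaker for clusters 2 and 4, at 1.22-fold and 1.57-fold, because they held fewer UMIs in all. Intervals and limits cover counting error only, here and below.

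The partner chain *Itgb1* was found in most neurons of every cluster. Its mean was 79.1 ± 11.5 CPM in cluster 1, 105 ± 33.1 in cluster 2 (n = 2 plates), 92.5 ± 32.0 in cluster 3 (n = 4), 76.7 ± 0.187 in cluster 4 (n = 2) and 98.7 ± 29.3 in cluster 5 (SD, n = 5 where not given). Ordered by mean, neighbouring clusters differed by less than the SD of at least 1 of them. The share of neurons with a UMI ran from 75% in cluster 4 to 100% in cluster 5, and cluster 4 was also the shallowest (median 20138 UMIs, against 57694 in cluster 5).

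*Chad* followed *Itga2* but varied more between plates. In cluster 5 it stood at 0, 29.3, 79.1, 20.9 and 30.6 CPM on replicates 1 to 5 (32.0 ± 29.0), in 14 of 31 neurons (45.2%). It was absent from the 7 cluster 5 neurons of replicate 1 and present in all 4 of replicate 3. Elsewhere it had a UMI in 2 of 51 neurons of cluster 1, both on replicate 3, in 4 of 42 neurons without a numbered cluster and in none of clusters 2 to 4.

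*Dcn*, a proteoglycan that coats collagen fibrils, was high in cluster 5 and lower in cluster 1. Cluster 5 averaged 57.7, 47.8, 91.1, 95.2 and 54.5 CPM on replicates 1 to 5 (69.3 ± 22.2), with a UMI in 25 of 31 neurons (80.6%). Cluster 1 averaged 6.69, 6.37, 12.0, 12.3 and 45.9 CPM, with a UMI in 20 of 51 neurons (39.2%). The plates of these clusters did not overlap. *Dcn* was nearly missing from the remaining clusters, with 1 of 15, 2 of 41 and 0 of 28 neurons of clusters 2, 3 and 4. The neurons without a numbered cluster averaged 15.7 ± 18.7 CPM, with a UMI in 11 of 42 (26.2%). Fibroblasts also make decorin, and the 6 fibroblast markers together reached between 0 and 12.1 CPM per plate in cluster 5, with *Col3a1*, *Lum*, *Pdgfra* and *Dpt* at 0 and UMIs of *Col1a1* and *Col1a2*.

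*Hapln1* had its highest level in cluster 1, with cluster 5 next. There it stood at 34.1, 37.5, 27.2, 35.0 and 12.5 CPM (29.2 ± 10.1), in 41 of 51 neurons (80.4%). Cluster 5 gave 16.6, 24.8, 2.42, 25.2 and 10.8 CPM (15.9 ± 9.65, 14 of 31 neurons), so the plates of clusters 1 and 5 overlapped. It was rare in clusters 2 and 3 (2 of 15 and 3 of 41 neurons) and not detected in the 28 neurons of cluster 4, and 7 of the 42 neurons without a numbered cluster had a UMI (6.08 ± 6.38 CPM).

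*Crtac1* differed from *Hapln1* most in clusters 1 and 4, where their orders were reversed. It averaged 87.5 and 29.3 CPM in cluster 4 (replicates 1 and 2, 20 of 28 neurons) and 37.6 ± 21.3 in cluster 5 (n = 5, 17 of 31 neurons). Cluster 3 gave 28.0, 31.2 and 20.1 CPM on replicates 3 to 5 and 0 on replicate 2. Cluster 1 stood lowest, at 2.03 ± 2.28 CPM (n = 5), with a UMI in 6 of 51 neurons. The neurons without a numbered cluster averaged 55.4 ± 31.3 CPM (20 of 42). Cluster 2 lay between 0 and 27.2 CPM (n = 2 plates, 6 of 15 neurons), below both plates of cluster 4. The levels in clusters 2, 3 and 5 overlapped between plates, as did those in clusters 3, 4 and 5.

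**Figure D1:**
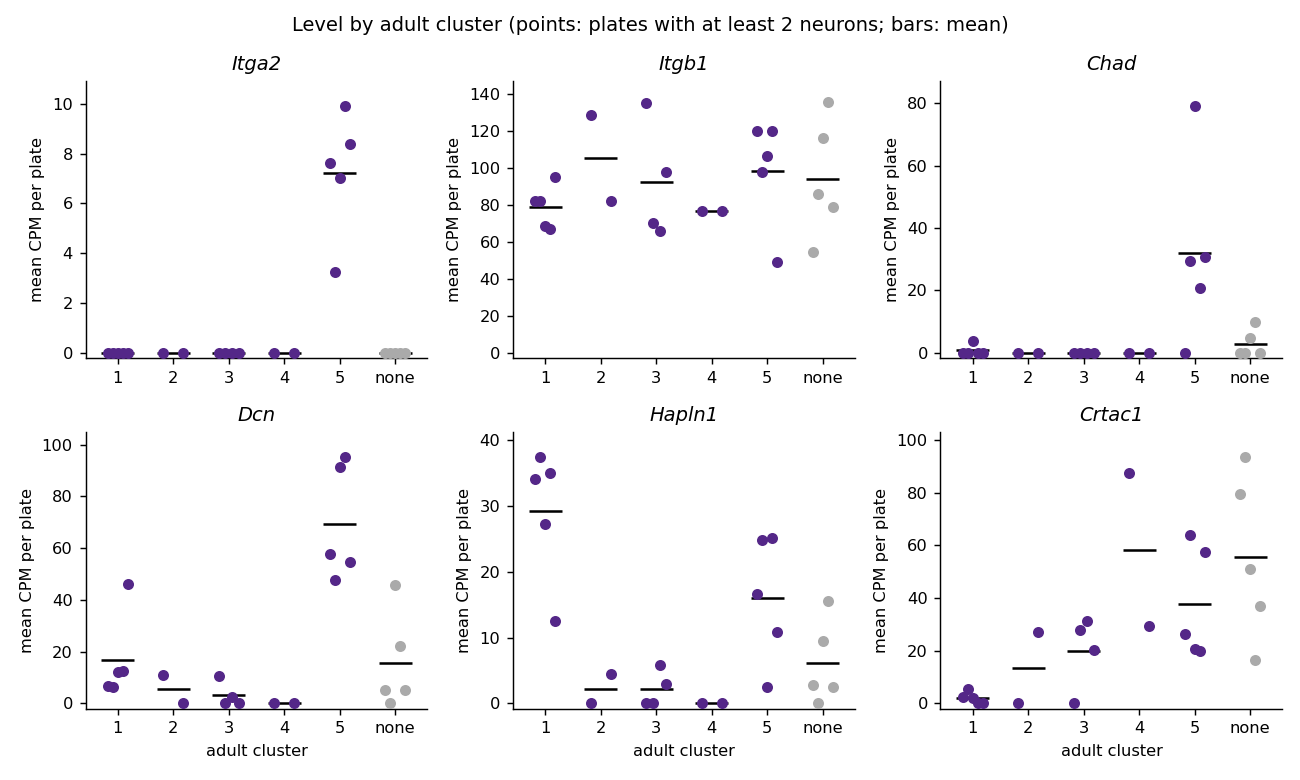
Mean CPM per plate of the 6 genes in adult clusters 1 to 5 and in neurons without a numbered cluster, with a point for each plate of at least 2 neurons and a bar for the mean. *Itga2* is above 0 in cluster 5 alone, *Hapln1* is highest in cluster 1 (29.2 CPM) and *Crtac1* is lowest there (2.03 CPM).

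Clusters 1 and 5 were the deepest (median 59922 and 57694 UMIs), and depth moves with these shares. With each neuron thinned to 7000 UMIs, the share with a UMI became 6.45% for *Itga2*, 12.9% for *Chad* and 25.8% for *Dcn* in cluster 5, against 0%, 1.96% and 7.84% in cluster 1. For *Hapln1* it became 21.6% in cluster 1 and 12.9% in cluster 5. For *Crtac1* it became 39.3% in cluster 4, 25.8% in cluster 5 and 5.88% in cluster 1.

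Within single neurons of cluster 5, *Itga2* and *Chad* were each seen in a minority. Of the 11 neurons with *Itga2*, 6 also had *Chad*, and of the 20 without it, 8 had *Chad*. The neurons with *Itga2* were deeper (median 71181 against 51849.5 UMIs). In the left-out adult wells, which no clustering used, 6 of 16 wells with *Itga2* had *Chad* (37.5%) against 13 of 226 without (5.75%), with median depths of 44006.5 and 27592 UMIs. At p12 the left-out wells gave 20 of 45 (44.4%) against 31 of 171 (18.1%), and at p0 they gave 9 of 15 (60%) against 17 of 77 (22.1%). At p0 the depths were alike (37371 and 36727 UMIs), whereas at p12 wells with *Itga2* were deeper (63045 against 33101).

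*Pou4f3*, which encodes a POU-domain transcription factor, marked adult cluster 5 (57.1 ± 8.10 CPM, 25 of 31 neurons) and served to divide the left-out wells, which have no cluster. It does not pick out cluster 5 alone, since 49 of the 208 kept adult neurons had a UMI of it, 12 of them among the 42 without a numbered cluster. In the adult left-out wells, *Chad* had a UMI in 14 of 37 wells with *Pou4f3* (37.8%) and in 5 of 205 without (2.44%), and the share was higher with *Pou4f3* on 5 of 5 plates. *Itga2* had a UMI in 9 of 37 (24.3%) against 7 of 205 (3.41%), higher on 4 of 5 plates. *Dcn* gave 14 of 37 against 17 of 205 (8.29%), also on 4 of 5 plates. Wells with *Pou4f3* were deeper, with a median of 41324 against 27201 UMIs. Replicates 1 and 4 held only 4 and 3 wells with *Pou4f3*. Thinning also divided the wells anew, since 17 then had a UMI of *Pou4f3* and 224 had none. *Chad* stood at 17.6% against 2.23% in these, *Itga2* at 5.88% against 1.34% and *Dcn* at 0% against 4.02%. At such shares 17 wells are too few to show an order for *Dcn*.

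The same comparison at p12 gave *Chad* in 31 of 54 left-out wells with *Pou4f3* (57.4%) and in 20 of 162 without (12.3%), higher on 4 of 4 plates. After thinning, with 18 wells with *Pou4f3* and 198 without, it stood at 44.4% against 5.05%. *Itga2* gave 23 of 54 (42.6%) against 22 of 162 (13.6%), on 3 of 4 plates, and 11.1% against 6.06% after thinning. Replicates 3 and 4 held only 2 wells with *Pou4f3* each, so they add little to these plate counts. Depth again differed, with medians of 63433.5 and 32809.5 UMIs. At p0 a UMI of *Pou4f3* did not set the clusters apart, being found in 21 of 35 neurons of cluster 1 and 8 of 12 of cluster 2. The p0 shares that follow therefore do not describe a cluster. In kept p0 neurons *Chad* was in 10 of 30 with *Pou4f3* (33.3%) and 3 of 25 without (12%), higher on 1 of 2 plates and equal on the other, with median depths of 44743.5 and 32166 UMIs. In the p0 left-out wells the order for *Chad* was the other way, with 8 of 38 (21.1%) against 18 of 54 (33.3%) and lower shares on both plates, while *Itga2* was higher with *Pou4f3* on both (21.1% against 12.96%). *Crtac1* and *Hapln1* were more frequent with *Pou4f3* there, in 30 of 38 wells (78.9%) against 15 of 54 (27.8%) and in 9 of 38 (23.7%) against 1 of 54 (1.85%), on both plates. In the adult left-out wells *Crtac1* stood at 56.8% and 58.0%, and *Hapln1* at 32.4% and 12.2%, higher with *Pou4f3* on 4 of 5 plates. All of these are counts of wells that share a plate, and they carry no test.

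**Figure D2:**
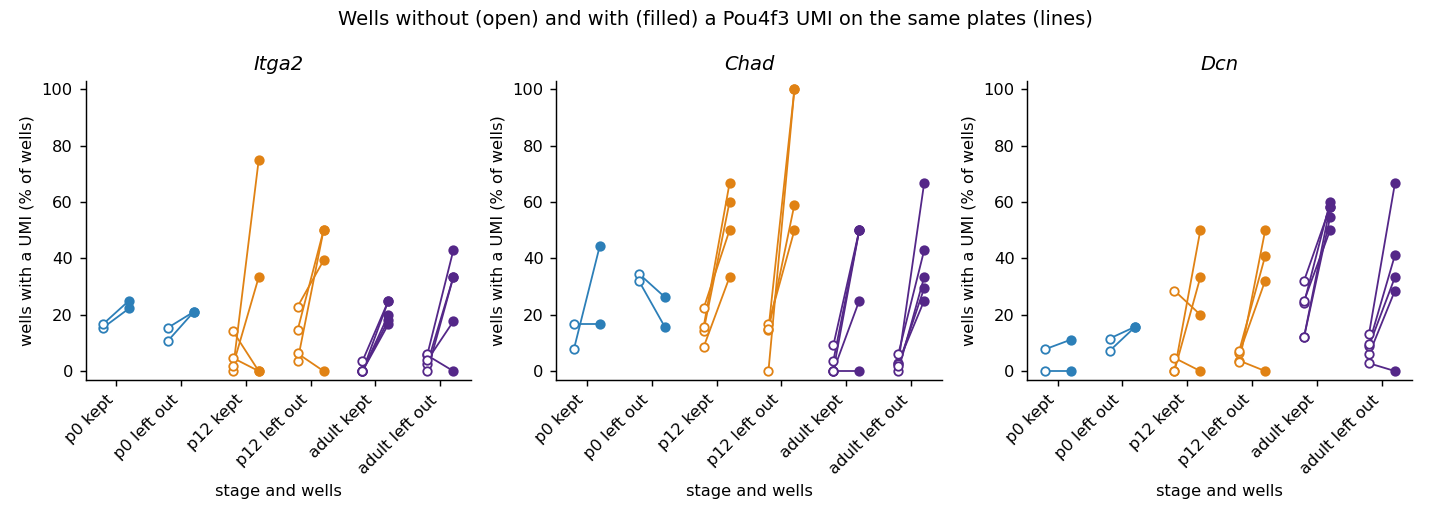
Percent of wells with a UMI of *Itga2*, *Chad* and *Dcn* among wells without (open points) and with (filled points) a UMI of *Pou4f3*, in kept and left-out wells of p0, p12 and the adult, with a line for each plate. *Chad* is higher with *Pou4f3* on 5 of 5 adult and 4 of 4 p12 plates of left-out wells, and lower on both p0 plates. At p12, replicates 3 and 4 have only 2 left-out wells with *Pou4f3* each.

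Across the kept neurons of a stage, *Itga2* was present from e14.5 on and was not tied to the adult. It averaged 4.47 and 4.26 CPM on the plates of e14.5 and 9.51 and 7.39 CPM at p0. At p12 it gave 1.62, 17.3, 1.88 and 1.30 CPM, and in the adult 1.03, 0.615, 0.651, 1.73 and 1.26 CPM. The plates of p0 lie above those of e14.5 and of the adult, and p12 spans the range through replicate 2 alone. At e14.5 it was seen in 6 of 88 neurons of cluster 2, in 1 of 41 of cluster 1 and in none of the 34 and 6 of clusters 3 and 4. A mean over a plate cannot tell fewer expressing neurons from less RNA in each.

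*Chad*, *Dcn* and *Hapln1* had no UMI in the 169 neurons of e14.5, which allows a share with a UMI of up to 1.78% at that depth and sets no limit on expression. *Chad* then gave 12.4 and 6.41 CPM at p0, 41.6, 33.1, 14.2 and 4.97 at p12, and 0, 5.53, 9.39, 6.12 and 4.58 in the adult. *Dcn* gave 5.99 and 0 CPM at p0, 14.9, 18.8, 2.93 and 0.349 at p12, and 11.1, 10.9, 22.1, 26.1 and 16.8 in the adult. Both were thus seen at every stage after birth, with ranges that overlap between p12 and the adult. *Hapln1* gave 4.26 and 0.531 CPM at p0, 75.2, 37.9, 12.8 and 9.09 at p12, and 12.4, 14.1, 9.41, 18.9 and 5.40 in the adult. Every p12 plate lay above both p0 plates.

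*Crtac1* was highest at p0, with 17.6 and 9.70 CPM at e14.5 and 82.2 and 69.5 at p0. At p12 it gave 47.6, 57.2, 36.4 and 51.6 CPM, and in the adult 45.4, 39.8, 26.03, 17.7 and 28.6. *Itgb1* moved least, between 69.3 and 121 CPM over all 13 plates (88.1 and 107 at e14.5, 77.0 and 69.3 at p0, 96.3, 121, 79.2 and 93.2 at p12, and 83.6 to 93.1 in the adult).

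**Figure D3:**
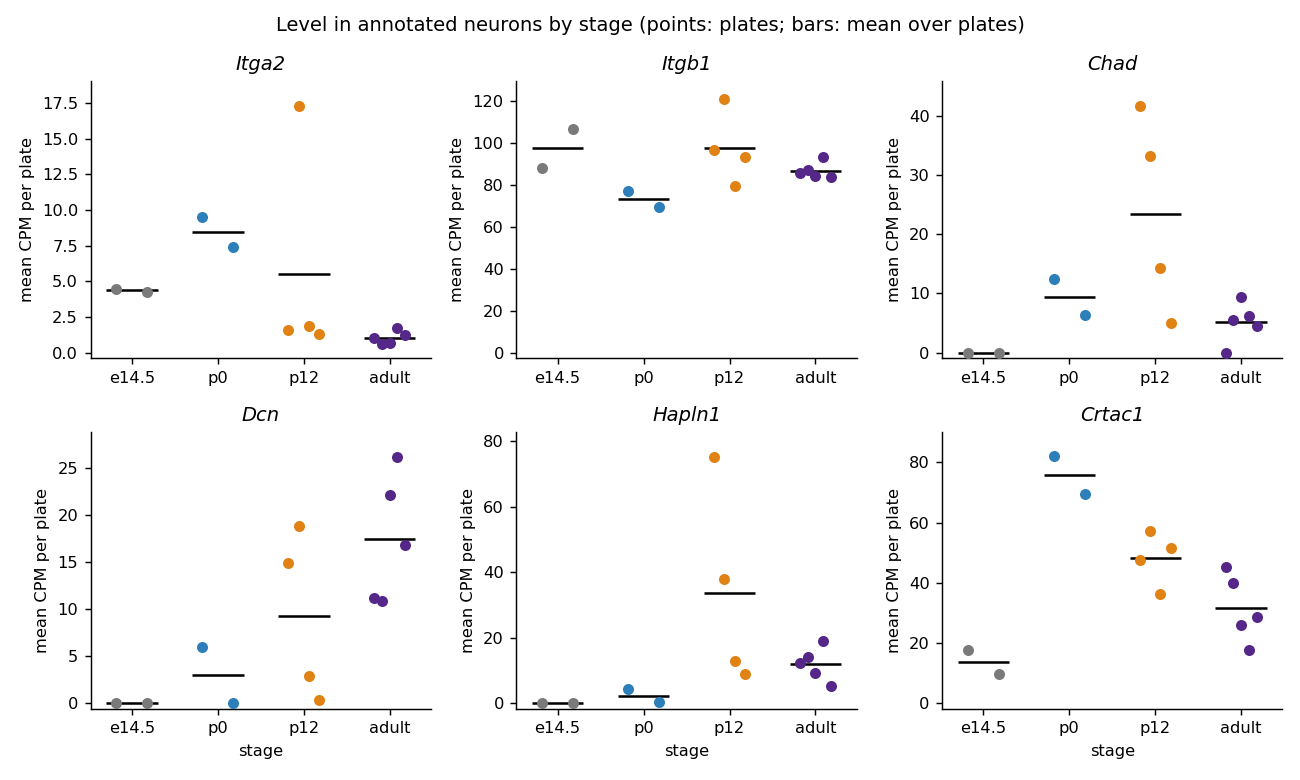
Mean CPM of the 6 genes over the kept neurons of each plate at e14.5, p0, p12 and in the adult, with a point for each plate and a bar for the mean over plates. *Crtac1* is highest at p0 (82.2 and 69.5 CPM), and *Chad*, *Dcn* and *Hapln1* lie at 0 on both e14.5 plates.

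To ask which of these changes exceeded the spread between plates, the UMIs of the kept neurons of each plate were summed and adjacent stages fitted in edgeR by its quasi-likelihood F-test, over 11939 genes (adjusted p by Benjamini-Hochberg over all of them, called under 0.05). From e14.5 to p0, 27.8% of all genes tested were called and 1 of the 6 members was. *Crtac1* rose by 2.14 on the log2 scale (standard error (SE) 0.43, adjusted p = 0.00263), and by 2.74 with e14.5 clusters 1 and 2 alone (adjusted p = 0.00106). Satellite glia markers moved at the same step, from between 0.883 and 14.53 CPM in sum per plate at e14.5 (*Kcnj10*, *Cdh19* and *Sox10* at 0) to between 469 and 608 at p0, with 2 of 3 tested markers higher. At p0 they lay mainly in the 8 neurons of cluster 3, at between 3165 and 3219 CPM. Cluster 1 had between 78.9 and 83.8 CPM and cluster 2 between 45.2 and 94.3. *Crtac1* averaged 102, 17.1 and 45.1 CPM in p0 clusters 1 to 3. The part of these markers in the result was not tested. *Chad*, *Dcn* and *Hapln1*, at 0 UMIs in e14.5, were at least 6.60-fold, 2.75-fold and 2.20-fold higher at p0 against the floor of 3 UMIs over the e14.5 neurons, and none passed the test (adjusted p = 0.0561, 0.180 and 0.169 with edgeR). The bounds of *Dcn* and *Hapln1* rest on p0 replicate 1. On replicate 2 these genes gave 0 and 0.531 CPM, under the e14.5 floor of 1.59 CPM. DESeq2 called 2 of the 6 members at this step, *Crtac1* and *Chad* (adjusted p = 0.0118). The log2 difference was 1.06 for *Itga2* (SE 0.95, adjusted p = 0.432) and -0.41 for *Itgb1* (SE 0.21, adjusted p = 0.145).

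From p0 to p12, 18.1% of all genes tested were called and 2 of the 6 members were. *Hapln1* rose by 3.68 (SE 0.83, adjusted p = 0.00733), and did so on either set of p12 plates, by 4.38 on replicates 1 and 2 and by 2.60 on replicates 3 and 4. Without p0 replicate 2 its change was 3.11 with an adjusted p of 0.0876. *Itgb1*, the common beta chain, rose by 0.60 (SE 0.18, adjusted p = 0.0312), and lost the call without either p0 plate (adjusted p = 0.129 and 0.260). The log2 differences of the others were 0.96 for *Chad* (adjusted p = 0.458), 1.23 for *Dcn* (0.436), -0.64 for *Crtac1* (0.194) and -0.82 for *Itga2* (0.506). For *Itga2* the p12 plates disagreed: the difference was 0.13 with replicates 1 and 2 (adjusted p = 0.931), -2.23 with replicates 3 and 4 (adjusted p = 0.00895) and -2.33 without replicate 2 (adjusted p = 0.00656).

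From p12 to the adult, 14.1% of all genes tested were called and 0 of the 6 members were, although 5 had an unadjusted p under 0.05, as did 3692 of all 11939 genes. DESeq2 called 0 of 6 as well, while edgeR with no filter on low counts called 5 of 6, all but *Itgb1*, and 2465 of 27777 genes (8.87%). The log2 differences were -1.76 for *Itga2* (SE 0.75, adjusted p = 0.126), -1.53 for *Chad* (SE 0.62, 0.112), -1.19 for *Hapln1* (SE 0.45, 0.0931), -0.73 for *Crtac1* (SE 0.27, 0.0785), 1.41 for *Dcn* (SE 0.61, 0.133) and -0.21 for *Itgb1* (SE 0.13, 0.317). The p12 plates set the size for *Hapln1*, which was -1.88 against replicates 1 and 2 (adjusted p = 0.0166) and -0.09 against replicates 3 and 4 (0.887). *Dcn* showed the reverse, with 0.38 (adjusted p = 0.725) and 3.22 (adjusted p = 0.00522). The clusters that each set of p12 plates holds differ too, and their part in these values cannot be told apart from the plates.

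Within the younger stages, *Itga2* and *Chad* were highest in the same cluster at p0. In the 12 neurons of p0 cluster 2, *Itga2* averaged 29.5 and 22.9 CPM on the plates (6 of 12 neurons) and *Chad* 44.1 and 23.0 CPM (9 of 12). In p0 cluster 1, with 35 neurons, each had a UMI in 4 neurons, and *Itga2* averaged 1.06 and 4.17 CPM and *Chad* 3.71 and 2.60. The plates of these clusters do not overlap for either gene. *Pou4f3* was high in p0 cluster 2 as well (148 ± 14.2 CPM, against 28.6 ± 3.29 in cluster 1, n = 2 plates), though the shares of neurons with a UMI were alike. *Crtac1* went the other way, at 112 and 92.3 CPM in cluster 1 and 24.8 and 9.50 in cluster 2, and *Dcn* had no UMI in the 12 neurons of p0 cluster 2.

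At p12, *Itga2*, *Chad* and *Dcn* had their highest mean in cluster 3, which lies on replicates 1 and 2. There *Itga2* gave 2.78 and 22.5 CPM (4 of 17 neurons), *Chad* 67.6 and 43.1 (6 of 17) and *Dcn* 20.0 and 24.5 (4 of 17). *Hapln1* instead marked p12 clusters 2 and 5, with 164 and 105 CPM in cluster 2 and 69.3 and 61.8 CPM in cluster 5, in 8 of 8 neurons of each. It had no UMI in the 63 neurons of p12 cluster 1, which were shallow (median 16185 UMIs). *Crtac1* was low where *Hapln1* was high, with 7.93 and 4.87 CPM in p12 cluster 2 and no UMI in cluster 5, against 75.9 and 72.9 CPM in cluster 3. These clusters were found in the same neurons, so their levels carry no test.

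**Figure D4:**
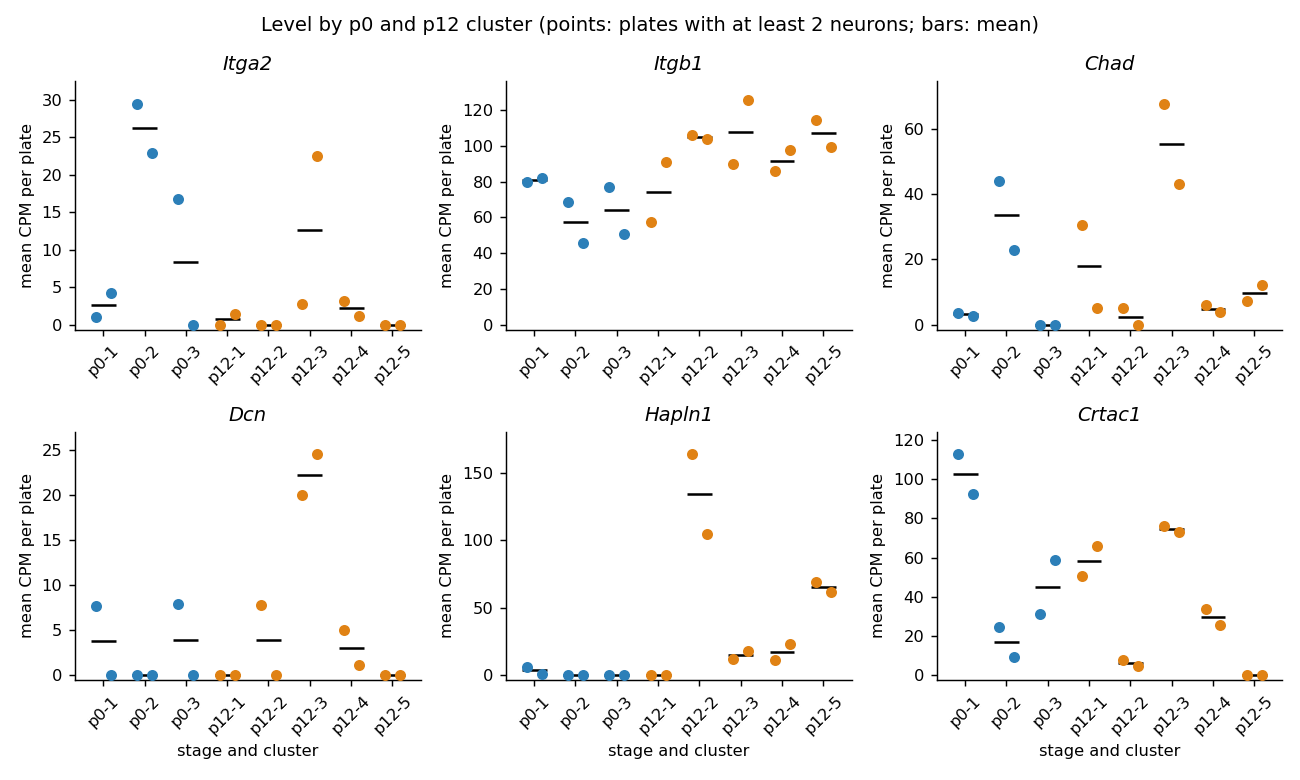
Mean CPM per plate of the 6 genes in the clusters of p0 and p12, with a point for each plate and a bar for the mean. *Itga2* and *Chad* stand highest in cluster 2 at p0, and *Hapln1* in cluster 2 at p12 (164 and 105 CPM).

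The wells left out by the authors carry transcripts of satellite glia, and were compared with the kept neurons. In the adult the kept neurons are those whose cluster levels chose the members, so the adult differences are not independent of that choice. Adult satellite glia markers summed to between 7184 and 12284 CPM per plate in left-out wells and between 286 and 800 CPM in kept neurons (6 of 6 markers higher), while *Apoe* of this list is a gene by which wells were left out. Sums per plate were compared with edgeR with the plate as a block, over 12632 genes. In the adult, 15.3% of all genes were called and 3 of the 6 members were.

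*Crtac1* was higher in the adult left-out wells, with 52.1, 67.6, 62.9, 46.3 and 56.6 CPM on replicates 1 to 5 against 45.4, 39.8, 26.03, 17.7 and 28.6 in the kept neurons. The log2 difference was 0.81 (SE 0.18, adjusted p = 0.00229), with the left-out wells higher on 5 of 5 plates, and the call was lost after thinning (0.64, adjusted p = 0.188). *Dcn* was lower, with 1.14, 7.46, 9.53, 16.5 and 9.49 CPM against 11.1, 10.9, 22.1, 26.1 and 16.8. Its log2 difference was -1.27 (SE 0.27, adjusted p = 0.00151), lower on 5 of 5 plates. The call was lost without the plate block (-1.20, adjusted p = 0.293), and no value could be fitted after thinning. In the same wells, 2 of 3 tested fibroblast markers (*Col3a1* and *Col1a2*) were higher, though 0 of the 6 passed the filter in the stage fit of kept neurons. *Hapln1* was lower, with 6.08, 12.8, 3.94, 1.83 and 6.02 CPM against 12.4, 14.1, 9.41, 18.9 and 5.40, on 4 of 5 plates (log2 difference -1.14, SE 0.30, adjusted p = 0.00799). This call was lost without replicate 4 (-0.79, adjusted p = 0.0770), with DESeq2 (adjusted p = 0.0505), without the plate block (-1.18, adjusted p = 0.349) and after thinning (-0.44, adjusted p = 0.822).

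Other markers moved in the same wells. Of the proprioceptor markers, 2 of 5 were lower, *Ntrk3* (-0.26) and *Pvalb* (-0.14). Of the adult cluster 1 markers, 3 of 6 were lower in adult left-out wells, among them *Calb2* (-1.19) and *Calb1* (-1.17), and their sum was between 43.8 and 85.6 CPM per plate in left-out wells and between 124 and 148 in kept neurons. Of the adult cluster 5 markers, which are *Pou4f3*, *Pcdh17*, *Pcdh8* and the members *Chad* and *Itga2*, 0 of 5 were called by edgeR or DESeq2, with 0 at an unadjusted p under 0.05, and their sum was between 32.5 and 70.4 CPM in left-out wells and between 40.2 and 70.6 in kept neurons. Fibroblast markers summed to between 1.09 and 5.82 CPM in kept neurons, with *Pdgfra* and *Dpt* at 0, and to between 23.7 and 59.2 in left-out wells, with *Dpt* at 0. Nociceptor markers ran from 0.645 to 17.8 CPM in kept neurons (*Scn10a* at 0) and from 0.704 to 235 in left-out wells, 2 of 2 tested being higher with edgeR and 0 of 2 with DESeq2. Of these, *Calca* rested on 1 plate, at 218.6 CPM of a mean of 44.1 over 5 plates. In the stage fit of kept neurons, 0 of the 4 nociceptor markers passed the filter. Endothelial markers reached at most 3.84 and 21.3 CPM, mural cell markers 2.08 and 15.5, and macrophage markers 2.88 and 0.929 in kept neurons and left-out wells. The part of other cells or of other neurons in the results of *Crtac1*, *Dcn* and *Hapln1* was not tested. The remaining members gave no call: the log2 difference was 0.60 for *Itga2* (SE 0.66), 0.36 for *Chad* (SE 0.38) and 0.10 for *Itgb1* (SE 0.09; adjusted p = 0.631, 0.621 and 0.533).

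At p12, 8.31% of all genes were called and 1 of the 6 members was. *Hapln1* was lower in the left-out wells, with 35.9, 26.9, 5.14 and 1.57 CPM against 75.2, 37.9, 12.8 and 9.09 in the kept neurons, on 4 of 4 plates. Its log2 difference was -0.97 (SE 0.27, adjusted p = 0.0197), and dropping replicate 1 or replicate 4 ended the call (adjusted p = 0.256 and 0.0551). The call also ended after thinning, without the plate block and with DESeq2, which called 0 of the 6 members. The cluster 1 markers *Calb2* (-1.62) and *Hpse* (-1.46) were lower there too, and the satellite glia markers summed to between 6598 and 8721 CPM against between 145 and 507. *Chad* gave 25.4, 44.2, 19.4 and 19.7 CPM in left-out and 41.6, 33.1, 14.2 and 4.97 in kept wells, with a log2 difference of 0.72 (SE 0.31, adjusted p = 0.184).

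At p0, 2.73% of all genes were called and 0 of the 6 members were with edgeR, with 1 at an unadjusted p under 0.05 and 0 with DESeq2. *Dcn* had the largest difference there, 1.55 (SE 0.62, adjusted p = 0.278), with 13.9 and 7.44 CPM in left-out and 5.99 and 0 in kept wells. The change of the left-out difference from p12 to the adult was called for 0.309% of all genes and for 0 of the 6 members with edgeR (0 with DESeq2, 1 at an unadjusted p under 0.05). That 1 was *Crtac1*, whose difference was larger in the adult by 0.85 (SE 0.28, adjusted p = 0.389), so its rise in the adult is not shown to differ from p12. Only 1 well was left out at e14.5, and no comparison was made there.

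**Figure D5:**
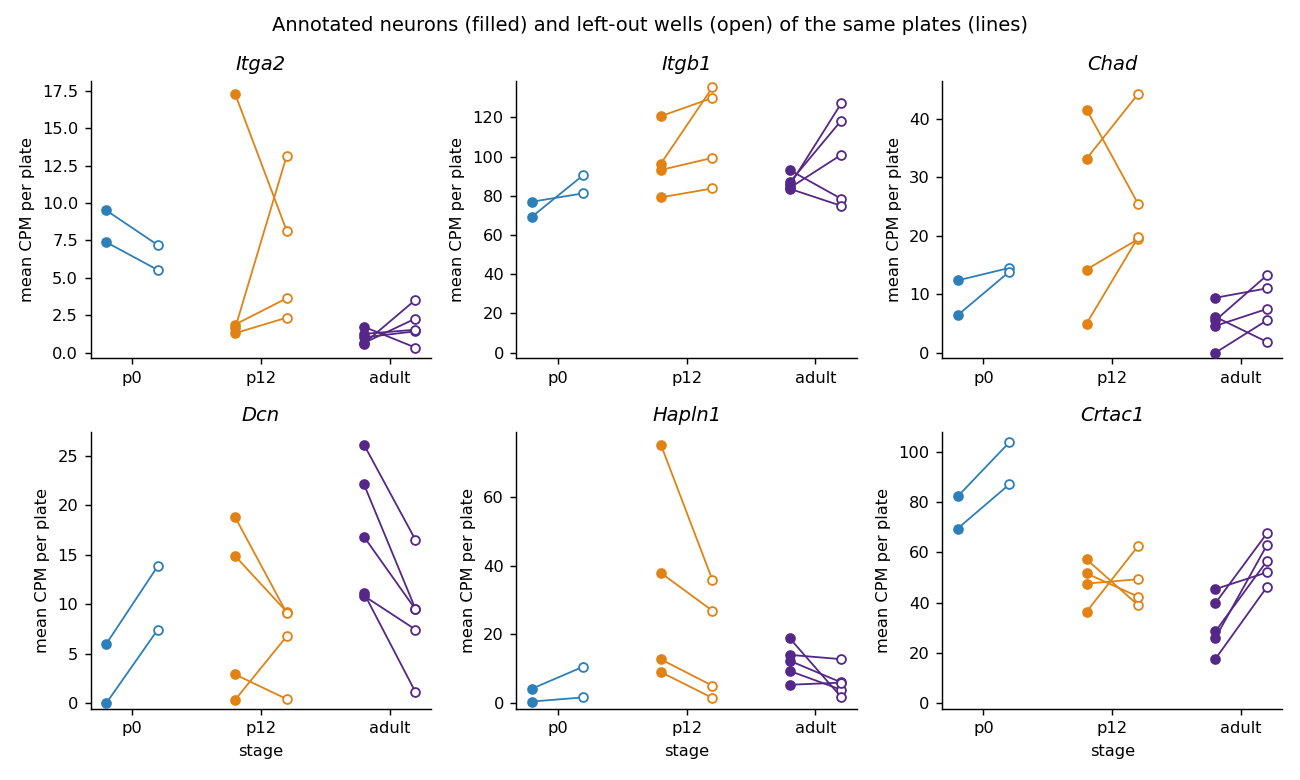
Mean CPM per plate of the 6 genes in kept neurons (filled points) and left-out wells (open points) at p0, p12 and in the adult, with a line joining the values of each plate. Adult *Crtac1* is higher and adult *Dcn* lower in left-out wells on 5 of 5 plates.

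The wider families were followed through lists of integrin chains, collagen receptors, integrin adaptors, leucine-rich repeat proteins, hyaluronan and link proteins and collagens, with 99 genes in all, among them every member but *Crtac1*. Between stages 30 of them passed the filter on low counts. From e14.5 to p0, 10 of 30 were called, 7 higher and 3 lower (33.3%, near the 27.8% of all genes), with a median log2 difference of 0.99 against 0.01 for all genes (0.97 with genes at 0 UMIs placed at their bound). The laminin-binding chain gene *Itga6* rose from 10.5 ± 0.209 to 43.7 ± 6.64 CPM (log2 difference 1.83), and *Itga3* fell from 12.7 ± 4.44 to 2.64 ± 0.0227 (-1.81, n = 2 plates each). The hyaluronan-binding proteoglycan gene *Ncan* fell from 445 ± 27.3 to 39.8 ± 6.44 CPM, and *Cd44*, which encodes a hyaluronan receptor, fell from 58.8 ± 12.9 to 7.34 ± 5.13.

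From p0 to p12, 12 of 30 were called, 9 higher and 3 lower (40%, against 18.1% of all genes, median 0.20 against 0.02). *Hapln4*, a link protein gene like *Hapln1*, rose from 7.49 ± 2.73 (n = 2) to 139 ± 70.6 CPM (n = 4), by 4.21 on the log2 scale (SE 0.43). The adaptor gene *Parva* rose from 0.654 ± 0.925 to 22.7 ± 5.63 CPM. *Zyx*, another adaptor gene, rose by 1.32 on the log2 scale and the muscle integrin chain gene *Itga7* by 1.13, while *Itga4* fell by 1.64. From p12 to the adult, 5 of 30 were called, 4 higher and 1 lower (16.7%, near the 14.1% of all genes, median -0.01 against 0.04). *Itga3* rose by 2.10, the collagen receptor gene *Ddr1* by 0.87, and *Parva* and *Ptk2* by 1.28 and 1.09, whereas *Parvb* fell by 0.88.

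In adult left-out wells, 28 of 52 tested genes of these lists were called, 24 higher and 4 lower (53.8%, against 15.3% of all genes, median 0.76 against -0.03, or 0.58 with genes at 0 UMIs placed at their bound). The filter counted the left-out wells here, at p12 and at p0. In the stage fit of kept neurons, 30 of these genes passed it, with 1 collagen. Genes that passed only through left-out wells, where they are high, could hardly be called lower. The excess of higher calls was thus partly set in advance and is given as a description. The collagens had 10 of 13 higher, with a median of 3.68, among them *Col3a1* (from 0.109 ± 0.244 to 6.66 ± 1.52 CPM, n = 5 plates) and *Col5a2* (from 0.274 ± 0.394 to 10.5 ± 5.62). *Itgb8* rose from 0.779 ± 1.13 to 35.0 ± 9.16 CPM, and *Bgn*, the closest relative of *Dcn* among the leucine-rich repeat proteins, from 0.289 ± 0.647 to 7.59 ± 2.84, while *Dcn* itself was among the 4 that were lower. The other 3 were *Hapln1*, *Itga4* (-1.01) and *Zyx* (-0.29). At p12, 25 of 52 were called in left-out wells (22 higher, 3 lower), or 48.1% against 8.31% of all genes. At p0, 11 of 52 were called, all higher, or 21.2% against 2.73%. DESeq2 called fewer of the 52, with 22 in the adult, 16 at p12 and 5 at p0.

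The genes most like each member over the 208 kept adult neurons were taken from 11999 candidates by the mean within-plate Pearson's r of log10(CPM + 1). For *Itga2* these were *Csmd3* (r = 0.49), *Mogat1* (0.48) and *Pou4f3* (0.45), and for *Chad* they were *Csmd3* (0.61), *Pou4f3* (0.61) and *Lyz1* (0.53, over the 4 plates with a UMI). The value for *Mogat1* ran from -0.09 to 1 between plates. In the 242 left-out adult wells, *Csmd3* and *Pou4f3* gave 0.33 and 0.33 with *Itga2* and 0.49 and 0.48 with *Chad*, whereas *Mogat1* gave 0.15. *Dcn* was most like *Car10* (0.53), *Pcdh17* (0.52) and *Cckar* (0.50), which gave 0.49, 0.30 and 0.36 in left-out wells.

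*Hapln1* was most like *Rgs6* (0.63), *Nefl* (0.57) and *Map7d2* (0.57), with 0.35, 0.45 and 0.44 in left-out wells, and *Crtac1* was most like *Cntnap2* (0.51), *Cbln2* (0.44) and *Tmem229b* (0.44), with 0.28, 0.38 and 0.28. For *Itgb1* the leaders *Spryd7*, *Creld1* and *Copb2* had r = 0.35 each, and 0.04, -0.00 and -0.05 in left-out wells. Against the summed cluster 1 markers, *Hapln1* gave r = 0.48 and *Crtac1* r = -0.41 in kept adult neurons, and 0.30 and -0.20 in left-out wells. Between the members, r was 0.45 for *Itga2* and *Chad* (-0.05 to 0.83 over 4 plates), 0.27 for *Chad* and *Dcn* (0.07 to 0.53 over 4 plates), 0.26 for *Dcn* and *Hapln1* (0.16 to 0.41 over 5 plates) and -0.23 for *Hapln1* and *Crtac1* (-0.50 to 0.19 over 5 plates). In adult left-out wells these pairs gave 0.21, 0.22, 0.08 and -0.20. Neurons of a plate share its library and its range of depths, and in such sparse counts these values describe likeness only.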

How the data were processed

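UMI counts per gene and well of 13 plates were used as deposited by the authors, who aligned reads to mm10 (GRCm38, NCBI annotation) with STAR and collapsed them by UMI. The STAR version is not given in the sources used here. These UMI counts carry no normalization. The authors' deposited annotation gave each kept neuron's plate, stage and cluster, the latter found with hicat. The authors left out wells with many *Apoe* transcripts, among other criteria. The results of 1 marker list are not reported here. No doublet caller was run.

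A well's CPM took all of its UMIs as the total, and CPM was averaged by plate (at least 2 wells). Wells under 2000 genes were set aside. UMIs summed per plate were fitted with edgeR 4.0.16 (R 4.3.3, limma 3.58.1, TMM, filterByExpr) in 1 fit for stages and 1 for left-out wells with plate as a block, and with DESeq2 1.42.0 as an alternative. The standard error is the log2 difference over the square root of F. Tables were made in Python 3.11.15 with pandas 2.3.3, numpy 2.4.6 and scipy 1.17.1, and plots with matplotlib 3.10.9. Tested on simulated counts, the stage fit recovered 79%, 64.5% and 49.5% of 200 genes changed 4-fold (adult against p12 over 11939 genes, then p12 against p0 and p0 against e14.5). The left-out fit recovered 91.5% in the adult and 87% at p12.

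The members and lists were chosen with earlier results of these data known. Named are the 6 members, at most 2 called genes per list and direction, the 3 most alike genes with a UMI in at least 10% of adult neurons, predicted genes skipped, and *Apoe* and *Pou4f3* as markers. The lists hold integrin chains, collagen receptors, integrin adaptors, leucine-rich repeat proteins, hyaluronan and link proteins, collagens and cell markers. Alternatives were DESeq2, its size factors, no filter, thinning to 7000 UMIs, all wells of at least 2000 genes, other cluster sets, no plate block, other averaging and each plate left out. The splits of p12 and adult plates were chosen after seeing the data. RefSeq promoter windows were found for 5 members.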

Additional observations from a re-analysis of the deposited data

Results flagged for a closer look

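Among 39 sets of 4 or 5 plates looked at for a plate far from the others, 3 were found. Chance gives about 1 in 20, a rate that does not hold for sparse counts with many plates at 0. At p12, *Itga2* stood at 17.3 CPM in the kept neurons of replicate 2, with a UMI in 3 of 13 neurons, and the next plate was at 1.88 CPM. In adult cluster 1, *Chad* stood at 3.64 CPM on replicate 3 (2 of 11 neurons) and at 0 on the other 4 plates. A gene seen on 1 plate alone is always found in this way, here through 2 UMIs. In the same cluster, *Dcn* stood at 45.9 CPM on replicate 5, where the cluster has 3 neurons and all 3 had a UMI, and the next plate was at 12.3 CPM.

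The wells with fewer than 2000 genes entered no comparison. *Itgb1* had 6 UMIs in 5 of these 111 wells, above the 3 counts that an observed 0 allows, while *Chad*, *Hapln1* and *Crtac1* had none there.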

How the results depend on the processing

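Of the log2 differences under alternatives, 317 stayed on their side of the threshold in the same direction, 15 gained and 16 lost the call, and 12 changed sign, none of them called. Causes were not tested. From p12 to the adult, dropping the filter on low counts gave calls for *Chad* (-1.54), *Crtac1* (-0.76), *Dcn* (1.41), *Hapln1* (-1.19) and *Itga2* (-1.77), and using all wells of at least 2000 genes gave them for *Chad* (-1.91) and *Itga2* (-2.01). *Crtac1* was called with the numbered adult clusters only (-0.98) and with adult replicates 3 to 5 (-1.08), *Dcn* with p12 replicates 3 and 4 (3.22) and *Hapln1* with p12 replicates 1 and 2 (-1.88). From p0 to p12, all wells gave a call for *Crtac1* (-0.81) and turned *Itga2* (0.10), p12 replicates 3 and 4 turned *Dcn* (-0.58) and called *Itga2* (-2.23), and p12 replicates 1 and 2 turned *Itga2* (0.13). *Itgb1* lost its call without the filter (0.63) and after thinning (0.46). Leaving out 1 plate gave 3.09 to 5.24 for *Hapln1*, -2.33 to -0.45 for *Itga2* and 0.51 to 0.69 for *Itgb1*. From e14.5 to p0 the adjusted p of *Chad* was 0.0118 with DESeq2, 1.94e-05 without the filter and 0.0170 with all wells, that of *Dcn* 0.00562 and 0.0247 in the last 2, and that of *Hapln1* 0.0169 without the filter.

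In adult left-out wells, thinning ended the calls of *Crtac1* (0.64) and *Hapln1* (-0.44), DESeq2 that of *Hapln1* (-1.16), and the fit with no replicate block for the plate those of *Dcn* (-1.20) and *Hapln1* (-1.18). At p12 the call of *Hapln1* ended with DESeq2 (-1.08), thinning (-0.79) and no block (-0.72), *Chad* was called without the filter (0.78), and *Crtac1* turned without the filter (0.013) and after thinning (0.56). At p0 *Chad* turned after thinning (-0.087). Leaving out 1 plate gave -1.41 to -0.79 for *Hapln1* in the adult, and at p12 -1.19 to -0.79 for *Hapln1*, -0.36 to 0.26 for *Crtac1* (0.00299 without replicate 4), -0.60 to 1.90 for *Itga2* and -0.00175 to 0.11 for *Itgb1*. At p0 it gave -0.14 to 1.00 for *Chad* and -0.079 to 0.53 for *Crtac1*. The lone p0 plate is then assumed to vary like the other plates. Between stages no paired analysis was possible because a plate holds 1 stage and a shared replicate number marks no shared animal. Thinning gave 46.1 CPM for *Dcn* in adult cluster 5, and thinning or asking for 2 UMIs gave shares of 6.45% and 6.45% for *Itga2* in cluster 5, 46.7% and 66.7% for *Itgb1* in cluster 2, 21.6% and 49.0% for *Hapln1* in cluster 1 and 39.3% and 42.9% for *Crtac1* in cluster 4. The share of *Dcn* in cluster 5 became 25.8% after thinning.

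Over all genes, the calls went from 1687 to 761 (adult against p12), 2162 to 697 (p12 against p0), 3314 to 1507 (p0 against e14.5), 1931 to 453 (adult left-out), 1050 to 180 (p12 left-out), 345 to 65 (p0 left-out) and 39 to 12 (change of the left-out difference) after thinning. With p12 replicates 1 and 2 or 3 and 4 the first count was 529 or 3070, and without p12 replicate 3 or 4 it was 787 or 898. Without a p0 plate the second was 888 or 884, and without 1 plate the third lay between 1455 and 1964. DESeq2 gave 1107, 585, 141 and 22 for the last 4, and no block gave 734, 499, 111 and 0 (edgeR, 414 of the last at an unadjusted p under 0.05). Without 1 plate, the p12 left-out count fell to 642 or 577 (replicates 1 and 2), that of p0 to 123 or 114, and the change of the difference rose to 61 (adult replicate 5). It was 106 without the filter. No value could be had for *Dcn* without p0 replicate 1 in 3 comparisons, for *Hapln1* at p0 after thinning, or for the change of the *Dcn* difference with DESeq2, and 20 of 42 member comparisons could not be fitted after thinning. The comparison of left-out wells at e14.5 was not run.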
